A study of Mus musculus with 12 samples.

Results

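Polyamine metabolism was followed through 10 genes that cover synthesis, breakdown and antizyme control: Odc1, Amd1, Srm and Sms, then Sat1, Smox and Paox, then Oaz1, Oaz2 and Azin1. They were taken by name from the 37991 genes counted in each library, and each matched exactly 1 Ensembl identifier. Of the 10 genes, 9 had enough reads to be tested among 12837 genes, and Paox did not. The study sequenced polyadenylated RNA in 12 libraries, 4 groups of 3, from MEL cells, mouse leukemia cells of the red lineage that mature further when induced. All 4 groups were induced. The control group was the line without knockdown. The KD group carried a knockdown of LDB1, a protein that joins the erythroid factors GATA1, TAL1 and LMO2 and takes part in chromatin looping. The delta45 group was knockdown cells given an LDB1 construct named delta 4/5, and the FL group was knockdown cells given full-length LDB1. The inducing agent, the means of knockdown, the promoters that drive the constructs and whether a line is 1 clone are not stated in the labels.

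Polyamines are small positively charged molecules that bind nucleic acids and that growing cells need for translation. Ornithine decarboxylase (Odc1) makes putrescine, S-adenosylmethionine decarboxylase (Amd1) supplies the aminopropyl donor, and spermidine synthase (Srm) and spermine synthase (Sms) extend putrescine to spermidine and then spermine. In breakdown, Sat1 acetylates spermidine and spermine, Paox oxidises the acetylated forms, and Smox oxidises spermine directly back to spermidine. Antizymes (Oaz1, Oaz2) bind ornithine decarboxylase and hand it to the proteasome, and the antizyme inhibitor (Azin1), a relative of the enzyme without its activity, ties up antizymes. Spermidine also supplies the hypusine residue of the translation factor eIF5A. Much control in this pathway acts on translation and protein turnover, which counts of mRNA do not show.

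Each library held between 8783970 and 20464959 gene reads. Levels are in CPM, gene reads scaled to a common library size by TMM. Each change is a log2 difference with its SE from the quasi-likelihood test of edgeR, and a gene was called at an adjusted p under 0.05 (Benjamini-Hochberg over all genes tested). The labels do not tell separate cultures from repeat libraries, so p-values measure no more than how these samples spread, and that spread may be technical. Ldb1 stood at 718 ± 71.2 CPM in control, 130 ± 31.2 in KD, 765 ± 15.4 in delta45 and 3439 ± 245 in FL (SD, n = 3), so the libraries followed their labels and the constructs were compared at unequal Ldb1 mRNA. The 11 erythroid markers, none of them at 0, summed to 12042 to 12334 CPM in control and 28099 to 36159 in FL. Their sum was lower in KD, at 3225 to 6474, and in delta45, at 3624 to 4104. Not every marker of the list fell. Tal1 stood at 527 ± 42.7 CPM in control, 1186 ± 416 in KD and 755 ± 8.82 in delta45. The means of Epor and Klf1 were also higher in KD and delta45 than in control, and those of the rest of the list were lower in both. In FL, Slc4a1 was lower than in control, at 30.5 ± 0.445 CPM against 57.5 ± 13.4, and the means of the rest were higher. The largest parts of the erythroid sum in FL were Hba-a1 at 9624 ± 1707 CPM and Hbb-bs at 9582 ± 2136. The sum of the 6 megakaryocyte markers, none of them at 0, also moved with the groups. It was 137 to 158 CPM in delta45, 759.9 to 813 in KD, 824 to 925 in control and 2636 to 2776 in FL. Between control and KD the list was mixed. Itga2b fell from 774 ± 54.7 to 266 ± 13.8 CPM, Pf4 rose from 72.2 ± 6.90 to 484 ± 37.6, and the means of the rest were higher in KD. Between control and FL it was mixed too. Itga2b at 2136 ± 60.3 CPM and Pf4 at 546 ± 36.6 made most of the FL sum, and Itgb3 was also higher in FL. Vwf was lower in FL (3.91 ± 1.01 CPM against 6.78 ± 1.13), as was Gp1bb, and Gp9 stood at 10.8 ± 2.14 against 10.9 ± 0.719. Lower lists moved too. The 6 myeloid markers summed to 56.5 to 70.3 CPM in control, 31.3 to 38.9 in KD, 12.9 to 16.4 in FL and 2.62 to 4.03 in delta45. The 5 lymphoid markers were highest in KD, at 32.9 to 45.3 CPM, against 13.6 to 15.8 in control, 6.25 to 9.53 in FL and 5.56 to 6.09 in delta45. The 5 stromal and endothelial markers stood at 13.7 to 16.9 CPM in delta45 and between 52.0 and 74.5 in the other libraries, and the 4 mast cell markers at 3.06 or less, with Mcpt8 of the mast cell list and Col1a2 of the stromal list at 0 in all groups. Most of the stromal and endothelial sum was Vim, at 58.5 ± 2.05 CPM in control and 13.9 ± 1.60 in delta45. Col1a1 was also lowest in delta45, whereas Pecam1 had its highest mean there (0.934 ± 0.121 CPM). The part of these marker differences in the results below was not tested.

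Reads that fit several places in the genome are not counted in these files, and they made up 50.6 to 53.3% of tallied reads in control but 38.7 to 39.2% in delta45, with KD (42.7 to 48.5%) and FL (42.3 to 47.1%) between. How far this touches each polyamine gene was measured as the share of 50-base windows of its longest coding transcript that also occur in transcripts of other genes. The read length is not given, so the window is a choice, and the shares depend on it. The share was 87.6% for Amd1, nearly all through its copy Amd2, which had 0 reads in all 12 libraries. It was 52.2% for Oaz1 through the pseudogene Oaz1-ps, 42.2% for Odc1 over 16 other genes, 28.9% for Paox and 28.7% for Sms through Sms-ps. Oaz2 shared 12%, Sat1 7.28%, Azin1 6.43%, Srm 2.4% and Smox 0%. With reads of about that length, the counts of Amd1, Oaz1 and Odc1 would miss the shared part of those genes, and whether lost reads moved with the groups was not tested. Exons of other genes covered 5.72% of the exon bases of Azin1, where an antisense gene lies, and the kit does not mark strand.

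**Figure D1:**
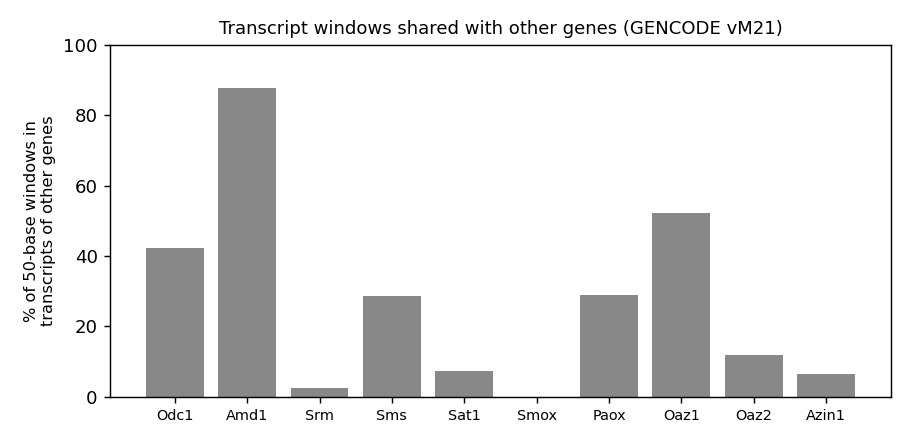
Share of 50-base transcript windows that also occur in transcripts of other genes, in percent, 1 bar per polyamine gene. Amd1 stands at 87.6% and Oaz1 at 52.2%, while Smox shares none.

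Odc1 and Srm, the enzymes that make putrescine and spermidine, had the same order of group means: lowest in FL, then control, then KD, and highest in delta45. Odc1 (ENSMUSG00000011179) stood at 59.8, 42.3 and 50.2 CPM in control, 63.9, 56.8 and 57.7 in KD, 74.6, 72.8 and 69.8 in delta45, and 25.1, 29.5 and 26.9 in FL. Each FL library lay below each library of the other groups, each delta45 library above them, and control and KD overlapped. Odc1 was 2.19-fold lower in FL than in KD (log2 change -1.13 ± 0.129, edgeR adjusted p = 9.98e-06) and 1.43-fold higher in delta45 than in control (log2 change 0.51 ± 0.125, edgeR adjusted p = 0.00295). In bulk RNA, fewer cells of a type and less RNA per cell cannot be told apart.

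Srm (ENSMUSG00000006442) spread wider. Its libraries stood at 46.7, 43.7 and 32.9 CPM in control, 70.8, 75.7 and 66.0 in KD, 112, 131 and 125 in delta45, and 15, 21.9 and 22.3 in FL. No pair of groups overlapped. Srm was 6.21-fold lower in FL than in delta45 (log2 change -2.64 ± 0.17, edgeR adjusted p = 4.07e-08) and 3.0-fold higher in delta45 than in control (log2 change 1.59 ± 0.162, edgeR adjusted p = 2.47e-06). The size of the FL to delta45 change was larger than that of 96.2% of all genes tested.

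Amd1 (ENSMUSG00000075232), whose product supplies the aminopropyl groups, took another order, with control lowest and both construct lines high. It stood at 7.18, 10.2 and 14.8 CPM in control, 15.5, 11 and 21.9 in KD, 36.7, 37.4 and 34.2 in delta45, and 41.2, 32.3 and 35.2 in FL. Delta45 and FL overlapped each other and lay above all control and KD libraries. Amd1 was 3.31-fold higher in delta45 and 3.32-fold higher in FL than in control (log2 change 1.73 ± 0.253 and 1.73 ± 0.255, edgeR adjusted p = 5.85e-05 and 7.29e-05). Sms (ENSMUSG00000071708) was called in none of the 6 comparisons, with group means from 21.7 ± 7.81 CPM in KD to 29.1 ± 2.72 in delta45 (SD, n = 3). Among the KD libraries, Sms stood at 30.7 CPM in replicate 1 and at 16.8 and 17.5 in the others.

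**Figure D2:**
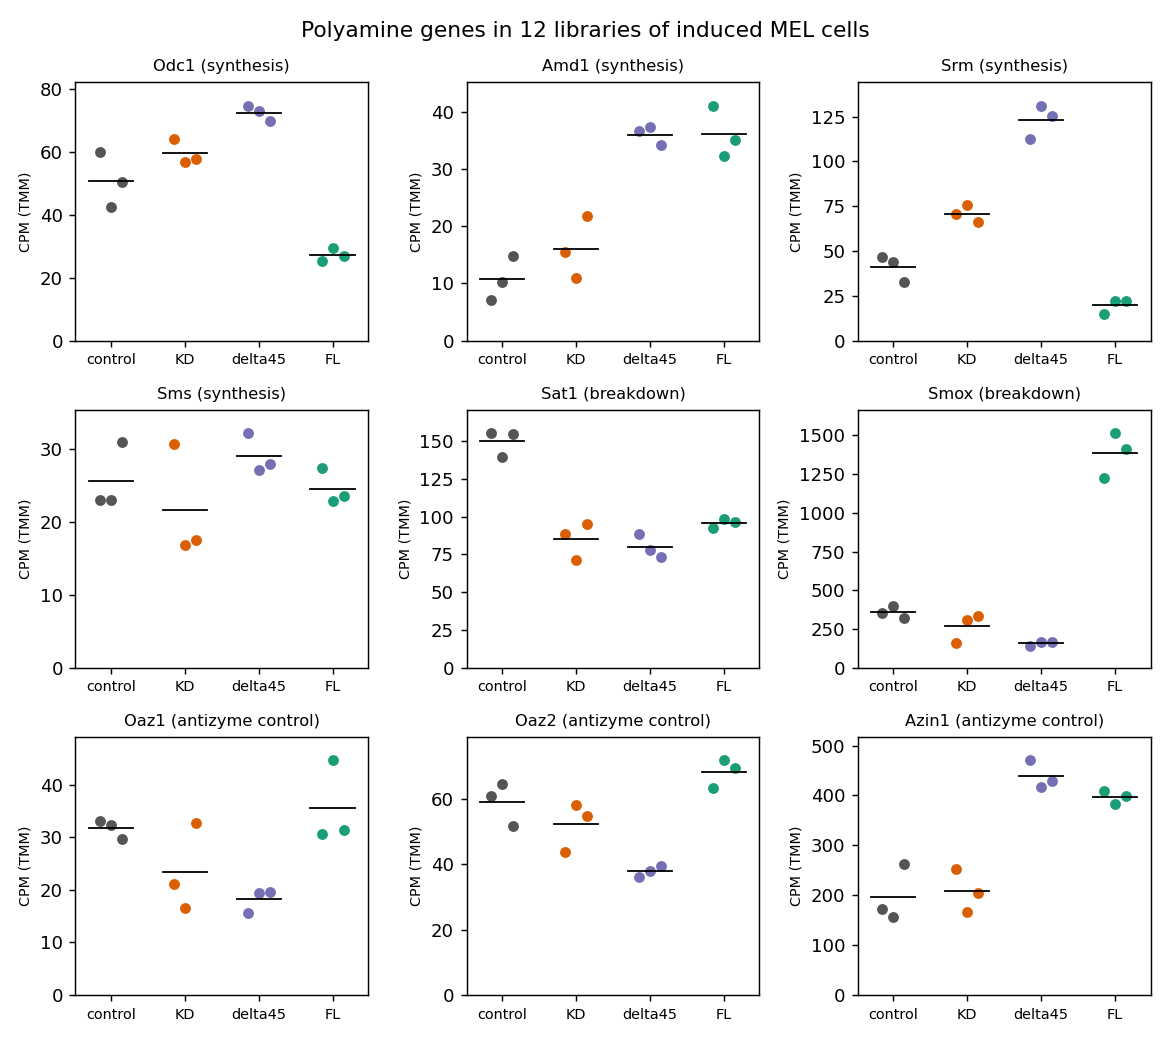
CPM after TMM scaling of the 9 tested polyamine genes in each library (points) with the group mean (line), 1 panel per gene, each axis starting at 0. Odc1 and Srm are lowest in FL and highest in delta45, Smox is highest in FL at 1226 to 1515 CPM, and Amd1 and Azin1 are high in both construct lines.

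Smox (ENSMUSG00000027333), the spermine oxidase, had the widest range of group means among the 9 tested genes and the reverse order of Odc1 and Srm. It stood at 1226, 1515 and 1415 CPM in FL, at 354, 399 and 321 in control, at 162, 308 and 334 in KD, and at 142, 165 and 169 in delta45. The FL libraries lay far above all others, delta45 lay below control, and KD overlapped both, with replicate 1 low. The erythroid marker sum of KD replicate 1, 3225 CPM, was also the lowest of the 3, against 4614 and 6474. Smox was 5.17-fold higher in FL than in KD (log2 change 2.37 ± 0.221, edgeR adjusted p = 1.69e-06), 8.74-fold higher in FL than in delta45 (log2 change 3.13 ± 0.228, edgeR adjusted p = 1.26e-07) and 2.26-fold lower in delta45 than in control (log2 change -1.18 ± 0.214, edgeR adjusted p = 0.000333). The FL to delta45 change exceeded that of 98.1% of genes tested.

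Sat1 (ENSMUSG00000025283), the acetyltransferase that starts the other breakdown route, was set apart by control rather than by FL. Control libraries stood at 155.4, 139 and 154.7 CPM. KD stood at 88.5, 71.2 and 95.2, delta45 at 88.4, 78.0 and 73.0, and FL at 92.2, 98.4 and 96.2. All 9 knockdown-derived libraries lay below all control libraries. Sat1 was 1.76-fold lower in KD (log2 change -0.82 ± 0.119, edgeR adjusted p = 0.000106), 1.88-fold lower in delta45 and 1.57-fold lower in FL than in control (edgeR adjusted p = 2.24e-05 and 0.000422), and was not called between the other groups. Paox (ENSMUSG00000025464), the oxidase that acts after Sat1, had 2 reads over the 12 libraries, 1 in delta45 and 1 in FL. With 0 reads, a level of up to 0.0826 CPM over the control group and 0.0858 over the KD group is allowed, a limit for counting error only. Of the exon bases of Paox, 2.89% lie within exons of Echs1 on the other strand.

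The 250 bases before the RefSeq start (build GRCm38.p6) are printed for Smox and Oaz2, chosen because they hold a GATA spelling, and for Odc1 as a stretch without one. Capitals mark matches, on either strand, to the GATA element (spelled as AGATAA, or as AGATAG, or as TGATAA, or as TGATAG), to the E-box CAGNTG that TAL1 can bind, or to the E-box CACGTG that MYC and MAX bind. The authors' build was mm9, and the coordinates are those of the RefSeq table.
Smox (chr2:131491612-131491861, plus strand): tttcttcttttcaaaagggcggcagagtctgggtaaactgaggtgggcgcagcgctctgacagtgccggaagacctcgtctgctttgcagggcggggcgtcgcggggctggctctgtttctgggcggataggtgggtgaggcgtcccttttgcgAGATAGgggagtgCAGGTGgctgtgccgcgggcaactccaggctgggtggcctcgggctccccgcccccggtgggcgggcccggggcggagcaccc
Oaz2 (chr9:65676298-65676547, plus strand): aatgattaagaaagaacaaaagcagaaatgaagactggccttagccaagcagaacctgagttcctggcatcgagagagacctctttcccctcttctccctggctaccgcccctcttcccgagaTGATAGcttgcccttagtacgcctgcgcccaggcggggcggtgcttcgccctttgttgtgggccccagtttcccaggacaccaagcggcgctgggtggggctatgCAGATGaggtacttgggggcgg
Odc1 (chr12:17544623-17544872, plus strand): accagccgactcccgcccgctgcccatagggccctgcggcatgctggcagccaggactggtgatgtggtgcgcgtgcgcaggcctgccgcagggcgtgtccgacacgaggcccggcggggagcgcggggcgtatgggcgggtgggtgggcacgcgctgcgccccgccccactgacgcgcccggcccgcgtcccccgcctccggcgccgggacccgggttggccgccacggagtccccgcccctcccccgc

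The Smox stretch held 1 GATA spelling, AGATAG, 96 bases before the start, and 1 CAGNTG match 83 bases before it. The Oaz2 stretch held TGATAG, 127 bases before the start, and a CAGNTG match 22 bases before it. The Odc1 stretch held none of these spellings and was 80% G and C. Entries were found for 8 of the 10 genes at 10 starts, not for Srm and Azin1. Smox and Oaz2 were the genes among those 8 with a GATA spelling. Oaz1, whose group mean was also highest in FL, had none. Amd1, high in both FL and delta45 (means of 36.2 and 36.1 CPM), had none either. Of the other motifs, Amd1 had a CAGNTG match and Sms a CACGTG match at 1 of its 2 starts. Of all 32851 promoters of the same length, 26.5% held a GATA spelling, 44.8% CAGNTG and 6.02% CACGTG. A match describes letters in this window and shows no binding.

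The antizymes Oaz1 and Oaz2 had the same order of group means as Smox, lowest in delta45 and highest in FL, over a narrower span. Oaz2 (ENSMUSG00000040652) stood at 60.8, 64.6 and 51.7 CPM in control, 43.7, 58.1 and 54.9 in KD, 36.0, 38.0 and 39.4 in delta45, and 63.2, 71.8 and 69.5 in FL. Delta45 lay below all other libraries, and control overlapped both KD and FL. Oaz2 was 1.80-fold higher in FL than in delta45 (log2 change 0.85 ± 0.127, edgeR adjusted p = 8.98e-05) and 1.56-fold lower in delta45 than in control (log2 change -0.64 ± 0.127, edgeR adjusted p = 0.000661). Oaz1 (ENSMUSG00000035242) stood at 33.0, 32.4 and 29.7 CPM in control and 15.6, 19.4 and 19.5 in delta45, a 1.75-fold difference (log2 change -0.80 ± 0.221, edgeR adjusted p = 0.00625). Its KD libraries spread from 16.5 to 32.7 CPM and its FL libraries from 30.5 to 44.6.

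Azin1 (ENSMUSG00000037458), which opposes the antizymes, followed Amd1 rather than Odc1. It stood at 172, 157 and 263 CPM in control, 253, 166 and 204 in KD, 471, 417 and 429.7 in delta45, and 408, 383 and 398 in FL. Control and KD overlapped, and each library of both construct lines lay above them. Azin1 was 2.11-fold higher in delta45 than in KD (log2 change 1.08 ± 0.185, edgeR adjusted p = 0.000299) and 1.91-fold higher in FL than in KD (log2 change 0.93 ± 0.184, edgeR adjusted p = 0.000828). FL and delta45 did not overlap but were not called different (log2 change -0.15 ± 0.182, edgeR adjusted p = 0.52).

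Set against each other per kilobase of the longest coding transcript, Smox led in control at 156 ± 17.2 CPM per kb and Sat1 followed at 129 ± 7.83. Azin1 came next at 40.5 ± 11.7 CPM per kb, then Oaz2 at 32.0 ± 3.61, Srm at 30.7 ± 5.46, Oaz1 at 29.6 ± 1.62 and Odc1 at 23.0 ± 3.96 (SD, n = 3). Smox and Sat1 did not overlap in control, whereas neighbours in the order from Azin1 to Oaz1 overlapped. Sms at 6.91 ± 1.25 CPM per kb and Amd1 at 3.35 ± 1.19 were the lowest of the 9. With reads of about 50 bases, shared windows would lower the values of Amd1, Oaz1 and Odc1 most, but the reads lost per gene were not measured. In FL, Smox reached 603 ± 64.0 CPM per kb, against 14.7 ± 3.06 for Srm and 12.3 ± 1.01 for Odc1.

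Ratios within a library do not depend on the scaling of libraries. The ratio of Smox to Odc1, each per kb, was 5.69, 9.06 and 6.13 in control, 2.43, 5.22 and 5.56 in KD, 1.82, 2.18 and 2.32 in delta45, and 46.9, 49.3 and 50.4 in FL. FL lay far above the rest, and delta45 lay below all other libraries. The ratio of Smox to Srm was 41.6 ± 5.43 in FL, 5.13 ± 0.654 in control, 2.22 ± 0.818 in KD and 0.75 ± 0.0279 in delta45 (SD, n = 3), and no pair of groups overlapped. Odc1 to Oaz2 ran the other way, from 0.333 ± 0.00975 in FL to 1.60 ± 0.126 in delta45, with control at 0.727 ± 0.156 and KD at 0.971 ± 0.217. These ratios were chosen after the levels were known and carry no test.

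**Figure D3:**
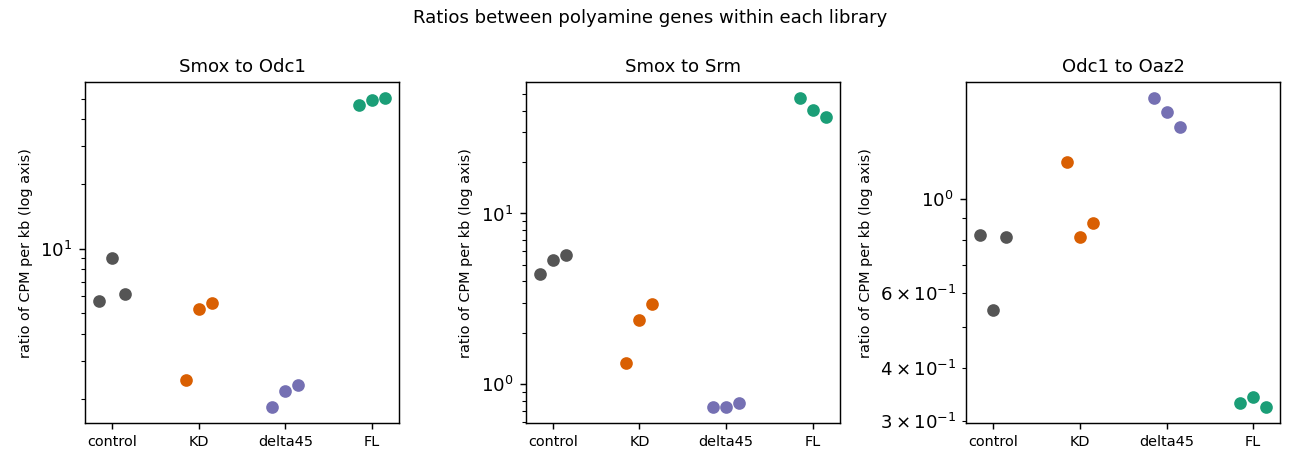
Ratio of CPM per kb between 2 genes within each library (points), on log axes, for Smox to Odc1, Smox to Srm and Odc1 to Oaz2. In FL the ratio of Smox to Odc1 is 46.9 to 50.4, against at most 9.06 in the other libraries.

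Knockdown against control compared the KD line with the line without knockdown. In it, loss of LDB1 and other differences between the lines cannot be told apart. Among the polyamine genes, Srm rose 1.73-fold (log2 change 0.79 ± 0.161, edgeR adjusted p = 0.00129) and Sat1 fell by 0.82 on the log2 scale. Sat1 was also lower than control in delta45 and FL. The other 7 tested genes were not called, with Amd1 at a log2 change of 0.57 ± 0.257, Smox at -0.42 ± 0.211 and Oaz1 at -0.43 ± 0.221. In all, 1 of 9 was called higher and 1 lower, where 25.6% and 24.1% of all genes tested were, and 49.7% either way. Both called genes had groups that do not overlap, as did 50.7% of all genes. The median log2 change of the 9 was -0.18, against 0.02 over all genes, and neither call held in a test against a fold change of 1.5, which called 18.6% of genes (adjusted p = 0.144 for Srm and 0.0513 for Sat1). Leaving out a single library added calls. Sms passed at -0.59 without KD replicate 1, and Oaz1 at -0.74 and Smox at -0.61 without KD replicate 3 (edgeR adjusted p = 0.00743, 0.00554 and 0.0329). Amd1 passed at 0.88 without control replicate 3 and 0.77 without KD replicate 2, and Odc1 at 0.36 without control replicate 1 (edgeR adjusted p = 0.0167, 0.0239 and 0.039). With all libraries, the edgeR adjusted p was 0.364 for Sms, 0.123 for Oaz1, 0.117 for Smox, 0.0822 for Amd1 and 0.149 for Odc1.

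FL against KD compared knockdown cells with and without the full-length construct. Here too, the construct and other differences between the lines cannot be told apart. The putrescine and spermidine enzymes fell, Srm by 1.84 and Odc1 by 1.13 on the log2 scale, while Amd1 rose 2.24-fold (log2 change 1.16 ± 0.249, edgeR adjusted p = 0.00144). Smox rose 5.17-fold and Azin1 1.91-fold, and the antizymes rose less, Oaz1 1.51-fold and Oaz2 1.31-fold (edgeR adjusted p = 0.0349 and 0.0191). Sms and Sat1 were not called. Thus 5 of 9 were higher and 2 lower, against 26.3% and 31.7% of all genes, and 58% either way. The groups of 6 did not overlap, as in 59.7% of all genes. The median log2 change was 0.39 against -0.06 over all genes, and 5 passed the test against a fold change of 1.5, as did 27.3% of genes. The antizyme calls were the weak ones. Oaz1 was not called without FL replicate 2, KD replicate 1 or KD replicate 2 (edgeR adjusted p = 0.162, 0.0504 and 0.0841) or with only these 2 groups in the fit (0.0679), and Oaz2 not without FL replicate 2 or 3 (0.0631 and 0.0555). Sms was called higher without KD replicate 1 (log2 change 0.58, edgeR adjusted p = 0.00752). Scaling by library totals only took both antizymes out of the calls (edgeR adjusted p = 0.196 for Oaz1 and 0.394 for Oaz2) and moved the median of all genes from -0.06 to -0.33, with 26.7% in place of 45.4% of called genes higher.

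Delta45 against KD made the same comparison for the altered construct, with the same limit. Srm rose 1.74-fold (log2 change 0.80 ± 0.158, edgeR adjusted p = 0.000853), Amd1 2.23-fold and Azin1 2.11-fold. Smox fell by 0.76 on the log2 scale (edgeR adjusted p = 0.00787) and Oaz2 by 0.46 (edgeR adjusted p = 0.00696). So 3 of 9 were higher and 2 lower, against 29.2% and 30.7% of all genes, and 59.9% either way, and the groups of 5 did not overlap, as in 63.5% of all genes. The median was 0.28 against -0.01 over all genes, and only Amd1 and Azin1 among the 9 passed the test against a fold change of 1.5, which called 27.3% of genes. Without KD replicate 1, 5 were higher, Odc1 (log2 change 0.36, edgeR adjusted p = 0.0293) and Sms (0.79, 0.000836) being added, and Oaz1 was called lower without KD replicate 2 (-0.54, 0.0454). Odc1 also passed without control replicate 1 or 2 (edgeR adjusted p = 0.0468 and 0.0446). The comparisons of FL and delta45 with KD share the KD libraries.

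FL against delta45 compared the lines that carry the constructs, and Ldb1 mRNA was 4.49-fold higher in FL. The form of the construct, its level and other differences between the lines cannot be told apart. Smox was 8.74-fold, Oaz1 1.95-fold and Oaz2 1.80-fold higher in FL, and Srm 6.21-fold and Odc1 2.66-fold lower (log2 change of Odc1 -1.41 ± 0.129, edgeR adjusted p = 1.07e-06). Oaz1 stood at a log2 change of 0.96 ± 0.221 (edgeR adjusted p = 0.00248). Amd1 stood at 36.2 ± 4.50 CPM in FL and 36.1 ± 1.67 in delta45 (SD, n = 3), with an SE of 0.239 on the log2 change, and Azin1, Sms and Sat1 were not called either. That is 3 of 9 higher and 2 lower, against 25.8% and 27% of all genes, and 52.8% either way. The groups of 7 did not overlap, as in 69% of all genes, and 4 passed the test against a fold change of 1.5, which called 25.2% of genes. The median log2 change was 0.00 against -0.01 over all genes. Sat1 (log2 change 0.26, edgeR adjusted p = 0.0824) passed without delta45 replicate 1 or any 1 KD library (0.0246 to 0.0488), with DESeq2 (0.0467) and with only these 2 groups in the fit (0.0194). By library totals only, 29.2% in place of 48.8% of all called genes were higher in FL.

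FL against control asked how far the line with full-length LDB1 stood from the starting line. Odc1 fell by 0.90 on the log2 scale (edgeR adjusted p = 5.78e-05), Srm by 1.05 (edgeR adjusted p = 0.000133) and Sat1 by 0.65. Amd1 rose 3.32-fold, Smox 3.87-fold (log2 change 1.95 ± 0.218, edgeR adjusted p = 6.41e-06) and Azin1 2.01-fold (edgeR adjusted p = 0.000424). The antizymes and Sms were not called. The counts were 3 of 9 higher and 3 lower, against 28.1% and 31.2% of all genes, and 59.3% either way. The groups of 6 did not overlap, as in 69.8% of all genes, and 5 passed the test against a fold change of 1.5, as did 29.9% of genes. The median was 0.16 against -0.01 over all genes. Oaz2 was called higher without KD replicate 1 (log2 change 0.27, edgeR adjusted p = 0.0401), and by library totals only 31.8% in place of 47.4% of all called genes were higher.

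Delta45 against control gave the most calls among the polyamine genes. Odc1, Amd1, Srm and Azin1 rose and Sat1, Smox, Oaz1 and Oaz2 fell, so that 4 of 9 were higher and 4 lower, against 31.9% and 32.5% of all genes, and 64.4% either way. Azin1 rose 2.22-fold (log2 change 1.15 ± 0.185, edgeR adjusted p = 0.000122), and Sms was the gene not called (log2 change 0.18 ± 0.21). The groups of 8 did not overlap, as in 74.5% of all genes, and 5 passed the test against a fold change of 1.5, as did 35.8% of genes. The median was 0.18 against 0.01 over all genes, and the median size of the change, regardless of direction, was 0.91 against 0.66. No call among the 9 changed when any 1 library was left out.

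**Figure D4:**
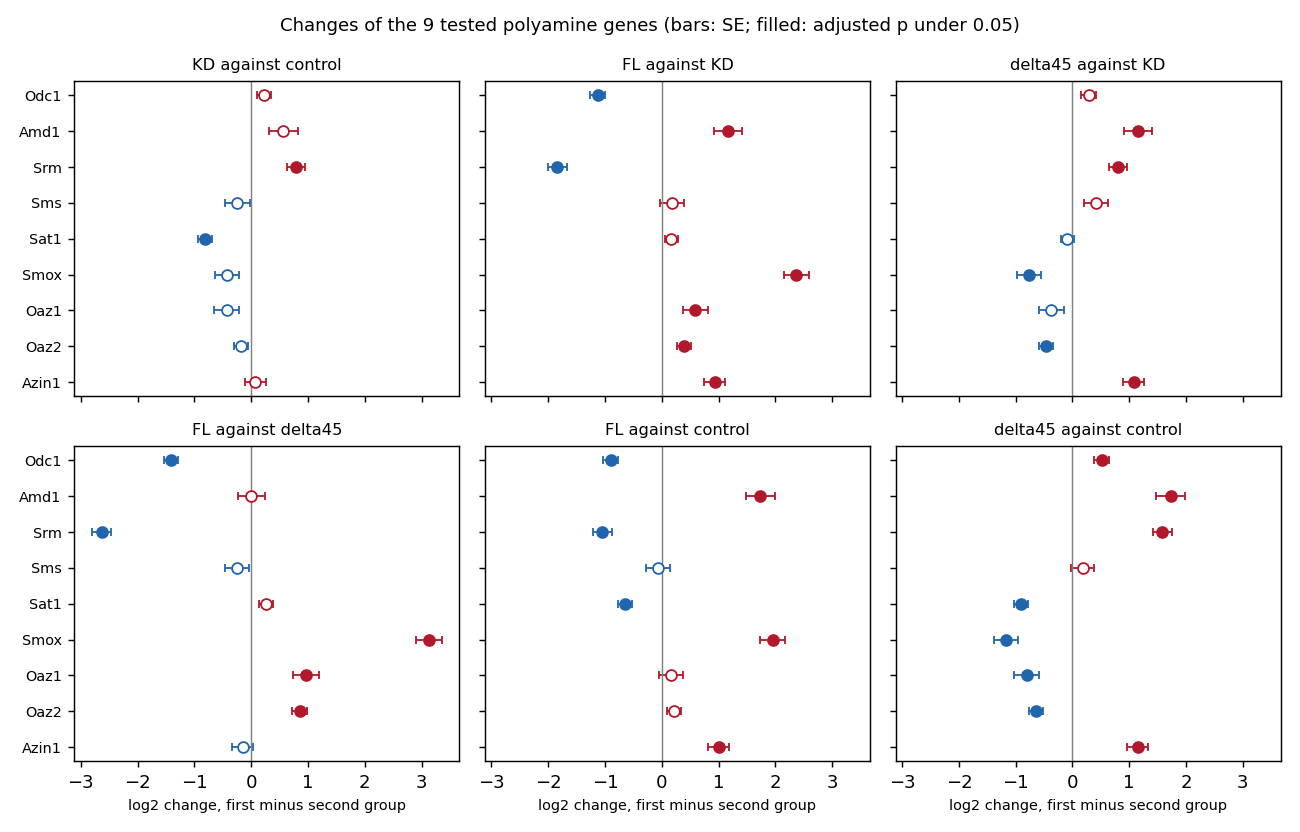
Log2 change ± SE of the 9 tested polyamine genes in the 6 comparisons (first minus second group), filled where the edgeR adjusted p is under 0.05. Smox lies at 2.37, 3.13 and 1.95 in the comparisons of FL with KD, delta45 and control, and Srm and Odc1 lie below 0 in the same panels.

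The genes whose log2 CPM ran most like that of the 3 members with the widest range of group means were taken from 9869 candidates over the 12 libraries. For Smox they were Cd82, Ormdl3 and Nfe2, a subunit of the erythroid factor NF-E2 (Pearson's r 0.995, 0.988 and 0.988). For Srm they were the ribosome assembly gene Rrp9 (0.992), the proline dehydrogenase gene Prodh (0.990) and Smyd5 (0.986). For Amd1 they were Cstf3, Tbk1 and Ttc33 (0.985, 0.976 and 0.967). Such values rest mostly on the 4 group means that all genes share, and carry no p.

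Further steps were counted over 6 lists of neighbouring genes. Beside each count stand the shares of all tested genes called higher and lower in that comparison, and no list was tested as a set. Of 8 tested genes for ornithine and arginine supply, 6 were lower and 0 higher in FL than in KD, against 31.7% and 26.3% of all genes (median log2 change -1.04, against -0.06 over all genes). FL against control also had 0 higher and 6 lower (28.1% and 31.2% of all genes), and FL against delta45 1 and 5 (25.8% and 27%). The counts were 1 and 4 in KD against control (25.6% and 24.1%), 2 and 3 in delta45 against KD (29.2% and 30.7%), and 3 and 4 in delta45 against control (31.9% and 32.5%). Slc7a1, the main arginine transporter of many cells, stood at 126 ± 10.9 CPM in control and 128 ± 32.7 in KD, which overlapped. It stood at 295 ± 9.80 in delta45 and 52.0 ± 6.45 in FL (SD, n = 3), highest and lowest of the groups as for Odc1. It was lower in FL than in delta45 (log2 change -2.50 ± 0.174, edgeR adjusted p = 8.29e-08). Pycr1, a proline synthesis enzyme, was at 11.3 ± 0.268 CPM in control and 0.833 ± 0.218 in FL, and Ass1 at 10.8 ± 2.10 and 1.25 ± 0.399. Asl, the next urea cycle enzyme after Ass1, was lower in delta45 than in control (log2 change -1.32 ± 0.135, edgeR adjusted p = 2.615e-06).

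Of 5 tested genes for polyamine transport and binding, 4 were lower and 0 higher in FL than in KD. Of all genes, 31.7% were lower and 26.3% higher. The median log2 change of the list was -0.88, against -0.06 over all genes. Higher and lower genes numbered 3 and 1 in KD against control (25.6% and 24.1% of all genes), 0 and 3 in delta45 against KD (29.2% and 30.7%) and 1 and 3 in FL against control (28.1% and 31.2%). They numbered 1 and 2 in FL against delta45 (25.8% and 27%) and 1 and 1 in delta45 against control (31.9% and 32.5%). Slc22a3, an organic cation transporter, was at 66.2 ± 38.2 CPM in KD and 9.63 ± 0.544 in FL (log2 change -2.79 ± 0.322, edgeR adjusted p = 1.07e-05). For Slc22a3 KD replicate 1 was high, and the log2 change of Slc22a3, FL against KD, was -2.15 without it. Gpc1, a heparan sulfate carrier linked to polyamine uptake, was at 12.1 ± 2.35 CPM in control and 0.265 ± 0.0972 in delta45. Atp13a2, a lysosomal polyamine exporter, was higher in KD than in control (log2 change 1.21 ± 0.139, edgeR adjusted p = 1.745e-05). Slc3a2, an amino acid transporter subunit also tied to polyamine transport, stood at 254 ± 47.6 CPM in KD and 138 ± 7.27 in FL (log2 change -0.88 ± 0.148, edgeR adjusted p = 0.00024).

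Of 4 tested genes among other enzymes and antizyme partners, 3 were higher and 1 lower in FL than in delta45, against 25.8% and 27% of all genes (median log2 change 0.87, against -0.01). The other comparisons had 1 higher and 0 lower in KD against control (25.6% and 24.1% of all genes), 1 and 2 in FL against KD (26.3% and 31.7%) and 0 and 2 in delta45 against KD (29.2% and 30.7%). Both construct lines had 1 and 2 against control (28.1% and 31.2% for FL, 31.9% and 32.5% for delta45). Azin2, the related antizyme inhibitor, went against Azin1: it was at 18.1 ± 2.96 CPM in control, 20.4 ± 4.95 in KD, 4.30 ± 0.585 in delta45 and 11.4 ± 1.45 in FL. Its fall from control to delta45 was -2.08 ± 0.211 on the log2 scale (edgeR adjusted p = 2.42e-06). Aldh1a1, an aldehyde dehydrogenase, reached 101 ± 5.39 CPM in FL against 5.15 ± 0.926 in delta45. Nqo1, a quinone reductase that can guard ornithine decarboxylase from degradation, was at 25.5 ± 7.85 CPM in KD and 6.11 ± 0.451 in FL. The proteasome receptor gene Psmd4 stood between 568 ± 6.4 CPM in delta45 and 715 ± 65.0 in FL.

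Of the 4 genes of eIF5A and its hypusine enzymes, 1 was higher and 1 lower in KD against control (25.6% and 24.1% of all genes), in FL against KD (26.3% and 31.7%) and in delta45 against control (31.9% and 32.5%), counts near those shares. There were 1 and 2 in delta45 against KD (29.2% and 30.7%), 0 and 1 in FL against delta45 (25.8% and 27%), and 1 and 0 in FL against control (28.1% and 31.2%). The list's medians ran from -0.22 to 0.27, against -0.06 to 0.02 over all genes. Eif5a was higher than in control in each other group (log2 change 0.69 in KD, 0.79 in delta45 and 0.49 in FL, edgeR adjusted p = 7.71e-05, 1.18e-05 and 0.000737). Eif5a2 was at 54.2 ± 12.9 CPM in control and 20.5 ± 7.77 in KD (log2 change -1.40 ± 0.238, edgeR adjusted p = 0.00035). Of the hypusine enzyme genes Dhps and Dohh, the largest change was -0.74 ± 0.221 for Dohh in delta45 against KD (edgeR adjusted p = 0.0116), a call lost without KD replicate 2 or delta45 replicate 1.

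Of 12 tested genes of the methionine cycle and of MTA salvage, which recycles the by-product of Srm and Sms, 7 were higher and 0 lower in delta45 than in KD, against 29.2% and 30.7% of all genes (median log2 change 0.42, against -0.01). FL against delta45 had 2 higher and 7 lower (25.8% and 27% of all genes), FL against KD 4 and 6 (26.3% and 31.7%) and KD against control 4 and 2 (25.6% and 24.1%). FL against control had 3 and 5 (28.1% and 31.2%), and delta45 against control 7 and 2 (31.9% and 32.5%). Mat2a, which makes S-adenosylmethionine, the substrate of Amd1, stood at 67.6 ± 17.9 CPM in control, 169.6 ± 33.9 in KD, 494 ± 26.3 in delta45 and 279 ± 15.8 in FL. Mtrr and Mtr, which regenerate methionine, were lower in FL than in delta45 (log2 change -2.58 ± 0.143 and -1.50 ± 0.189, edgeR adjusted p = 1.14e-08 and 2.06e-05). Ahcy, which clears S-adenosylhomocysteine, fell with them (log2 change -1.68 ± 0.159, edgeR adjusted p = 1.45e-06).

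Odc1 and Srm are known targets of MYC, and the MYC network was read beside them. Of its 8 tested genes, 3 were higher and 4 lower in FL than in delta45, against 25.8% and 27% of all genes (median log2 change -0.19, against -0.01). The counts were 3 and 2 in KD against control (25.6% and 24.1%), 2 and 3 in FL against KD (26.3% and 31.7%) and 3 and 4 in delta45 against KD (29.2% and 30.7%). They were 1 and 2 in FL against control (28.1% and 31.2%) and 2 and 2 in delta45 against control (31.9% and 32.5%). Myc stood at 112 ± 2.73 CPM in control, 193 ± 46.6 in KD, 458.5 ± 34.3 in delta45 and 118.5 ± 13.2 in FL (SD, n = 3). It was lower in FL than in KD (log2 change -0.70 ± 0.155, edgeR adjusted p = 0.00173), as Odc1 and Srm were, but FL and control were not called different (0.08 ± 0.154, edgeR adjusted p = 0.664), while Odc1 and Srm were lower in FL. Among the antagonists, Mxi1 was at 299 ± 16.4 CPM in control and 55.6 ± 2.52 in delta45, Mxd4 at 539 ± 22.0 and 291 ± 9.58, and Mxd3 at 2.70 ± 0.479 CPM in FL against 30.1 ± 3.85 in control. Whether these moves bear on Odc1 and Srm was not tested.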

How the data were processed

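RNA was extracted with the RNeasy Kit and made into libraries with the TruSeq kit, which keeps no strand, per the labels' protocols. Cutadapt 1.1, TopHat 1.4.1, DESeq 1.10.1 and HTSeq 0.5.3p9 on build mm9 are named, per the submitters' processing notes; the annotation and settings were not stated. The authors deposited raw read counts per gene. The 5 closing rows of each file that name no gene were dropped. Symbols were matched for 32919 of 37991 identifiers. filterByExpr kept 12837 genes, which edgeR 4.0.16 (R 4.3.3) fitted with TMM scaling, a mean per group, no block and all 12 libraries at once, with p-values adjusted within each of 6 comparisons. Likeness used log2 CPM with a prior count of 2. Transcript windows, lengths and overlaps came from GENCODE vM21 (GRCm38). DESeq2 1.42.0 was an alternative, and the tests were tested on simulated data. In simulated KD against control, edgeR recovered 22% of genes set at a 1.5-fold change and 92% at a 2-fold change. DESeq2 recovered 44% and 94%.

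The polyamine genes and lists were chosen with earlier results of these data known. Named were all 10 members, up to 4 genes per list by lowest adjusted p with a group mean of at least 5 CPM, and the 3 genes most like each of the 3 members with the widest range of group means. A gene withheld for evaluation is left unreported.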

Additional observations from a re-analysis of the deposited data

How the results depend on the processing

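No called change of a polyamine gene or of a named pathway gene changed sign under the alternatives tried: RLE scaling, library totals only, globin genes left out, 2 other count filters, DESeq2, only the 2 groups compared, a replicate block, a test against a fold change of 1.5, and each library left out. Of the values for the 9 tested genes under these alternatives, 1094 kept their side of the threshold, 20 lost a call and 20 gained one. Against a fold change of 1.5, KD against control had 0 genes higher and 0 lower, FL against KD 3 higher, delta45 against KD 0 lower and delta45 against control 2 lower. Over all genes that test called 2387 (KD against control), 3510 (FL against KD), 3506 (delta45 against KD), 3233 (FL against delta45), 3835 (FL against control) and 4596 (delta45 against control), where the main test called 6380, 7445, 7693, 6778, 7616 and 8271. Library totals only gave 3 higher in FL against KD, where 5 were higher by TMM; the cause was not tested beyond the shift in the median of all genes. With 1 library left out, the genes higher in KD against control ranged from 1 to 2 and those lower from 1 to 3, those higher in FL against KD from 3 to 5, and those higher in delta45 against KD from 3 to 5. Libraries were to be treated as paired by number only where the deviations of every same-numbered pair correlated above 0.1, which held in none of the 6 comparisons (-0.196 to 0.269 over all pairs). Among KD, delta45 and FL all such correlations were above 0, from 0.0315 to 0.248. In each of the 3 comparisons among KD, delta45 and FL, 5 of 6 libraries correlated best with their own number, and 2 of 6 in each comparison with control, a hint from the data, not from the design. The replicate block gave 2 genes lower in KD against control, Smox being added (log2 change -0.46, edgeR adjusted p = 0.0455), and changed no other count of the 9. Depth limits Paox most, at 2 reads in all.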
